A study of Homo sapiens with 6 samples.

Results

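Glycolysis and the response to low oxygen were followed in MRC5 lung fibroblasts through 39 genes, which were taken by symbol from the 58676 gene identifiers of the deposited count table. They comprised 2 hexose transporters, 17 glycolytic enzymes and lactate dehydrogenases, 3 genes of lactate export and pyruvate entry, 2 regulators of fructose 2,6-bisphosphate, 4 genes of the hypoxia-inducible factors (HIFs) and their prolyl hydroxylases, and 11 other hypoxia response genes. All 39 symbols had a row with counts, and 38 of them were among the 19072 genes with at least 10 counts over the 6 libraries that were tested. The comparison asked whether conditioned medium (CM) from RAS-activated epithelial cells looked poor in oxygen or glucose to the fibroblasts that received it.

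MRC5, an established line of human fetal lung fibroblasts grown in Dulbecco's modified Eagle's medium with 10% fetal bovine serum, received CM for 24 h before poly(A) RNA was sequenced. In 3 libraries the CM came from control ATIIER:KRASV12 cells (control ATII CM), and in 3 it came from the same cells treated with 4-hydroxytamoxifen (4-OHT ATII CM). ATIIER:KRASV12 is a line of human alveolar type II epithelial cells that carries KRASV12 fused to an estrogen receptor domain, so that 4-OHT switches RAS signaling on, and it was grown in DCCM-1 medium with newborn calf serum. All 6 libraries therefore came from CM-exposed cells of a single fibroblast line, and RAS activation in the epithelial cells and 4-OHT carried over in their CM cannot be told apart by these groups. The oxygen, glucose and lactate of the CM are not analysed here. The labels do not say whether the replicates were separate cultures, so the p-values measure only the spread between these libraries.

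Cells take up glucose through facilitative transporters, trap it as glucose 6-phosphate with hexokinase, split it into trioses and oxidize these to pyruvate, which is reduced to lactate and exported or sent into mitochondria. When oxygen is short, the prolyl hydroxylases EGLN1 and EGLN3 no longer mark the HIF-α subunits for destruction, and HIF raises the transcripts of most glycolytic genes together with those of *VEGFA*, *ADM*, *NDRG1*, *BNIP3*, *ANKRD37* and *PDK1*. HIF-α abundance is set mainly at the protein level, which an RNA measurement does not show. When glucose is short, transcripts driven by the glucose sensor MondoA, such as *TXNIP*, are known to fall, and those of the unfolded protein and amino acid responses, such as *HSPA5* and *DDIT3*, are known to rise.

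HIF binds the core sequences ACGTG and GCGTG. For that reason the promoters are shown of 5 of the 6 genes that changed (*BNIP3L* had no entry) and of 2 others with the most ACGTG sites. Each run is a RefSeq window on GRCh38.p14, from 250 bases before to 50 after the annotated start, 5′ to 3′ on the strand of the gene, with ACGTG in capitals (read as CACGT where it lies on the other strand) and every other base in lower case. The window of *PKM* is chr15:72231141-72231440 on the minus strand, *ENO1* is chr1:8878637-8878936 on the minus strand and *HK2* is chr2:74833877-74834176 on the plus strand, and these 3 fell. *MXI1* is chr10:110207355-110207654 and *EPAS1* is chr2:46297157-46297456, both on the plus strand, and these 2 rose. *LDHA* is chr11:18394313-18394612 and *PGK1* is chrX:78103998-78104297, both on the plus strand, and they were chosen after their values were seen.
PKM: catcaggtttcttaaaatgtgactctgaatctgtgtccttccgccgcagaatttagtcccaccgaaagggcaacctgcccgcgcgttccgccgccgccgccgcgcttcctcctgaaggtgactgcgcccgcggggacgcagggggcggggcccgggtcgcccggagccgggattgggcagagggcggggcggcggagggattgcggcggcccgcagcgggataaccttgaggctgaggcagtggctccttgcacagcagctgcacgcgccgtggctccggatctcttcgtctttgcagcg
ENO1: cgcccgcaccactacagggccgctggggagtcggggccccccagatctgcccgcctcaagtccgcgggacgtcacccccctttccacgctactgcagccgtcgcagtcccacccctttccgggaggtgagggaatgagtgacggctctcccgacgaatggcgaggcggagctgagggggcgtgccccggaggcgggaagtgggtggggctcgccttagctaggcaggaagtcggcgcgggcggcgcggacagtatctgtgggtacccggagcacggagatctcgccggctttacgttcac
HK2: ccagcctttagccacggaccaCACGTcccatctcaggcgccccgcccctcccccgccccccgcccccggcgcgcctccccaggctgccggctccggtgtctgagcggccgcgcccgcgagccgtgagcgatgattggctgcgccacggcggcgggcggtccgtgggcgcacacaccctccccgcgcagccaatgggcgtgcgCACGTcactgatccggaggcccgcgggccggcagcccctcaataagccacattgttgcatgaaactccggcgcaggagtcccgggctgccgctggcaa
MXI1: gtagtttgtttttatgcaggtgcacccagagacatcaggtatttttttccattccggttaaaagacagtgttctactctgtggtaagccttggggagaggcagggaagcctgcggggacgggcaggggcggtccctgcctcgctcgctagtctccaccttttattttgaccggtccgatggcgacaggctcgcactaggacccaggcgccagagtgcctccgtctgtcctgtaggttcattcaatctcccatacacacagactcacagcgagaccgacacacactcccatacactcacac
EPAS1: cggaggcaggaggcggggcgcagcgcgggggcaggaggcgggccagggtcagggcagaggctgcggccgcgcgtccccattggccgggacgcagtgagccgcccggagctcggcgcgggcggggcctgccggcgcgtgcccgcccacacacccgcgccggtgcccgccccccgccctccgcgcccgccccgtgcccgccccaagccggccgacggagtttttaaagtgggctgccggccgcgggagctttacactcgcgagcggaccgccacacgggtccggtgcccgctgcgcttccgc
LDHA: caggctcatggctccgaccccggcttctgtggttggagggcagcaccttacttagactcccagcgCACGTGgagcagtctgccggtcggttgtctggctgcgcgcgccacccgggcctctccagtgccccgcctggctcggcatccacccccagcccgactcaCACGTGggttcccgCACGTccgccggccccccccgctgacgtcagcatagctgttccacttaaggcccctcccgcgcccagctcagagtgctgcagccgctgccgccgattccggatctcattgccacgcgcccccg
PGK1: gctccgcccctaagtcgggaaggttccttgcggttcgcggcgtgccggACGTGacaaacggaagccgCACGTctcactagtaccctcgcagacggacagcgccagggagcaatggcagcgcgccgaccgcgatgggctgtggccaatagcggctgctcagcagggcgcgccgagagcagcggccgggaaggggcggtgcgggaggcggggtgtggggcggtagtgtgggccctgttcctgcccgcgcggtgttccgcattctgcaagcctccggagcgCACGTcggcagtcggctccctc

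Either core, ACGTG or GCGTG, stood in 27 of the 34 promoters with an entry (79.4%), against 48.9% of all 27305 promoters in the table and 62.7% of the 12336 promoters of genes tested. ACGTG itself stood in 16 of the 34 (47.1%), against 21.7% and 26.1% of the same 2 backgrounds. At least 2 ACGTG sites were held by 7 of the 34 (20.6%), against 3.45% and 4.64%. A palindromic CACGTG, which holds ACGTG on both strands and was counted as 1 site, stood in 6 of the 34 (17.6%), against 7.44% and 9.63%. The windows of *LDHA* and *PGK1* held 3 ACGTG sites each and that of *HK2* held 2, whereas those of *PKM*, *ENO1*, *MXI1* and *EPAS1* held no ACGTG. With GCGTG counted too, *LDHA* and *PGK1* held 4 cores each, *HK2* held 3, *ENO1* held 2, *PKM* and *EPAS1* held 1 each and *MXI1* held 0. The windows of *PFKM*, *PGAM1*, *P4HA2*, *GAPDH*, *PFKP*, *HK1* and *GPI* lay 204 to 3283 bases from the start of the main transcript. Of these, *GAPDH* and *GPI* are among the 16 with ACGTG. The genes were chosen for glycolysis and the hypoxia response, so a high share of HIF cores does not bear on these libraries. Enhancers and more distant promoter sites were not searched.

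Of the 38 genes tested, 3 rose and 3 fell in 4-OHT ATII CM at an adjusted p below 0.05 (edgeR quasi-likelihood test, Benjamini-Hochberg adjustment over all genes tested), and 32 passed in neither direction. *BNIP3L*, *MXI1* and *EPAS1* rose, and *PKM*, *ENO1* and *HK2* fell. The 6 calls are 15.8% of the 38, against 5.72% of all genes tested (2.95% higher and 2.76% lower). At least 10 CPM (the count scaled by library size) was the mean level of 37 of the 38, and 10.2% of the 9202 genes at that level were called. An unadjusted p below 0.05 was found for 16 of the 38 against 17.3% of all genes tested, and the groups did not overlap for 11 genes in the higher and 5 in the lower direction, against 11.7% and 10.4% of all genes tested. The changes themselves were small. The median absolute log2 fold change was 0.068 over the 37 genes at that level and 0.065 over all 9202, and no gene of the 38 changed by more than 1.5-fold. The 95% interval of the change lay within 1.25-fold in either direction for 33 of the 38. The other 5 were *HK2*, *ALDOC*, *PFKFB4*, *ANKRD37* and *MXI1*. DESeq2 and limma-voom called the same 6 genes. Leaving out control library 2 raised the number that rose to 7, adding *ALDOC*, *EGLN1*, *NDRG1* and *DDIT4*, and leaving out 4-OHT library 3 reduced the number that fell to 1, *PKM*. Over all genes tested, the number that rose went from 563 to 696 in the first of these fits, and the number that fell went from 527 to 300 in the second.

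By role, the values are given as a description. Among the 17 enzymes from hexokinase to lactate dehydrogenase, 14 had a log2 fold change below 0, with a median of -0.052. At the adjusted threshold 3 fell and none rose (17.6%, against 5.72% of all genes tested and 10.2% of those at 10 CPM or more). An unadjusted p below 0.05 was found for 7 of the 17 (17.3% of all genes tested). Their summed level was 8227, 8859.8 and 8356 CPM in the control libraries and 8014, 7944 and 7974 CPM in the 4-OHT libraries, and these ranges did not overlap with or without control library 2. Without that library 11 of the 17 were below 0, 3 fell and 1, *ALDOC*, rose. Among the 21 other genes tested, 14 were above 0, with a median of 0.042, and 3 rose and none fell (14.3%), while 9 had an unadjusted p below 0.05. Their summed level was 3367, 3427 and 3417 CPM against 3564, 3567 and 3619 CPM, again without overlap. The median over all genes tested, which the scaling holds near 0, was -0.0020. A sum in CPM weighs abundant genes most, and in bulk RNA fewer cells of a kind and less RNA per cell cannot be told apart.

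**Figure D1:**
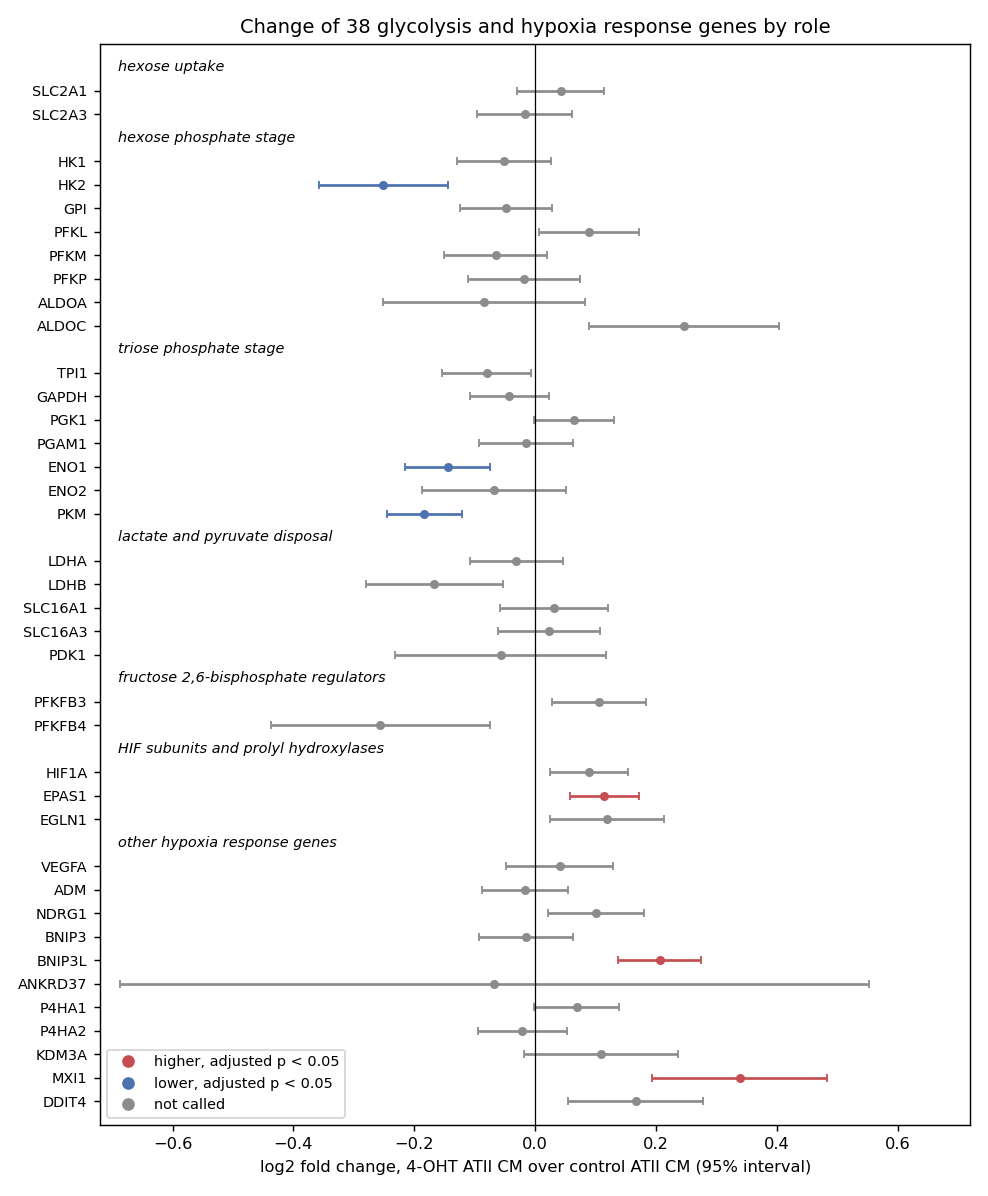
Log2 fold change of each of the 38 genes tested (4-OHT ATII CM over control ATII CM, points) with its 95% interval (bars), in order of role. *PKM*, *ENO1* and *HK2* lie below 0 and *BNIP3L*, *MXI1* and *EPAS1* above 0 at the adjusted threshold, and the widest interval is that of *ANKRD37*.

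The libraries carried the markers of their label, fibroblasts. The 9 fibroblast markers *COL1A1*, *COL1A2*, *COL3A1*, *DCN*, *LUM*, *PDGFRA*, *PDGFRB*, *THY1* and *VIM* summed to between 41020.4 and 44629 CPM in each library. Within this sum *DCN* (log2 fold change 0.33), *LUM* (0.29), *PDGFRA* (0.22) and *COL3A1* (0.18) rose and *VIM* (-0.10) fell, 55.6% of the 9 against 5.72% of all genes tested, and their part in the other changes was not tested. Against this, 8 epithelial markers summed to between 7.34 and 10.4 CPM with *KRT5* and *NKX2-1* at 0 in all libraries, 4 endothelial markers to at most 0.560 CPM and 4 leukocyte markers to at most 0.168 CPM. Total counts ran from 17691849 to 26389449. Control library 2 had the fewest counts and stood apart on the second principal component, which held 23.3% of the variance. Deviations from the mean of all 6 libraries followed gene length in the 3 control libraries (Spearman 0.29, -0.31 and 0.15 over 9691 genes for libraries 1, 2 and 3). Control library 2 was the highest of the 6 libraries for 7 of the 17 enzymes, and the values of the enzymes without it are given once, after the triose phosphate stage. Of 10 proliferation markers 9 fell (2.76% of all genes tested fell), with a median log2 fold change of -0.50. The part of this in the enzyme levels was not tested.

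Neither of the 2 hexose transporters was called, and neither had an unadjusted p below 0.05 by edgeR (5.72% and 17.3% of all genes tested). *SLC2A1*, which encodes the widely used transporter GLUT1, stood at 241, 255 and 249 CPM in control ATII CM and at 255, 252 and 260.2 CPM in 4-OHT ATII CM. The groups overlapped, and the 95% interval of the change was -2.05% to 8.21% (log2 fold change 0.042, SE 0.034, adjusted p = 0.592 by edgeR). *SLC2A3*, which encodes the high-affinity transporter GLUT3, stood at 82.0, 80.6 and 79.2 CPM and then at 80.6, 79.2 and 79.0 CPM, also with overlap, and its interval was -6.44% to 4.28%. Per exon length, the control level of *SLC2A1* was 52.6 ± 1.41 CPM per kb (SD, n = 3) and that of *SLC2A3* was 13.1 ± 0.233 CPM per kb.

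At the hexose phosphate stage 1 of 8 genes fell (2.76% of all genes tested fell) and none rose. *HK2* (chr2:74833981-74893359), the inducible hexokinase, which can bind mitochondria and whose promoter window above holds 2 ACGTG cores, stood at 36.7, 36.5 and 36.3 CPM in the control libraries. In 4-OHT ATII CM it stood at 32.2, 30.3 and 29.6 CPM, below every control library (log2 fold change -0.25, SE 0.050, adjusted p = 0.00628 by edgeR). The interval of that fall was -22.0% to -9.55%, and without control library 2 the log2 fold change was -0.25. The call was lost without 4-OHT library 3 (adjusted p = 0.0517 by edgeR). *HK1*, the constitutive hexokinase, had a log2 fold change of -0.052 with an interval of -8.58% to 1.79%, and the share of *HK2* in the per-length level of both was 19.9, 19.1 and 19.0% in the control libraries and 17.7, 17.4 and 16.7% in the 4-OHT libraries. These shares did not overlap, and the difference of -2.05 percentage points gave p = 0.1 in a two-sided exact permutation test, which is the smallest that 3 against 3 libraries allow, and 0.2 after adjustment over 14 shares.

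The phosphofructokinases, which catalyze the committed step, did not pass the test. *PFKL*, the liver-type subunit, stood at 149.7, 163 and 162 CPM in control ATII CM and at 171, 168 and 166 CPM in 4-OHT ATII CM, without overlap (log2 fold change 0.089, adjusted p = 0.246 by edgeR). *PFKM*, the muscle-type subunit, and *PFKP*, the platelet-type subunit, had log2 fold changes of -0.065 and -0.018. The *PFKL* share of the 3 subunits was 26.0, 25.8 and 27.2% and then 27.9, 28.2 and 27.6%. *GPI*, which makes fructose 6-phosphate, had a log2 fold change of -0.049.

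Both aldolases, which split fructose 1,6-bisphosphate, were among the lower genes in counts. *ALDOC* stood at 14.1, 15.4 and 13.6 CPM and then at 16.8, 17.6 and 16.5 CPM, without overlap, and the largest positive log2 fold change among the enzymes, 0.25, was its own, with an adjusted p of 0.0655 by edgeR. It passed without control library 2 (adjusted p = 0.0241 by edgeR), without a filter beyond 1 count (adjusted p = 0.0371) and with trends on GC content and length removed (adjusted p = 0.0457). *ALDOA*, usually the main aldolase outside liver and brain, held only 1657 counts over the 6 libraries and stood at 12.2, 12.9 and 12.9 CPM and then at 12.4, 11.3 and 12.2 CPM. In the GENCODE 44 annotation 89.8% of the bases of its main transcript also belong to another gene on the same strand, ENSG00000285043, and a read in such bases can be left uncounted. The level of *ALDOA* and the *ALDOC* share of the 2 aldolases are therefore not read here as levels of enzyme transcripts.

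At the triose phosphate stage 2 of 7 genes fell and none rose, where 2.76% of all genes tested fell and 10.2% of those at 10 CPM or more were called in either direction. *PKM* (chr15:72199029-72231822), which encodes the pyruvate kinase of the last step and was the gene with the smallest p among the enzymes, stood at 2143, 2292 and 2145 CPM in control ATII CM. In 4-OHT ATII CM it stood at 1944, 1903 and 1948 CPM, so that every 4-OHT library lay below every control library (log2 fold change -0.18, SE 0.029, adjusted p = 0.00117 by edgeR). Without control library 2, its highest, the log2 fold change was -0.15 with an adjusted p of 1.14e-04 by edgeR. The table counts the gene as a whole, so the M1 and M2 splice forms were not separated.

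*ENO1* (chr1:8861000-8879250), the main enolase of non-neural cells, stood at 1384, 1505 and 1392 CPM and then at 1318, 1266 and 1290.3 CPM. The 4-OHT libraries again lay below all control libraries (log2 fold change -0.14, SE 0.033, adjusted p = 0.0156 by edgeR). Its call was lost without 4-OHT library 2 (adjusted p = 0.0940 by edgeR) and without 4-OHT library 3 (adjusted p = 0.0793), and without control library 2 the log2 fold change was -0.10 (adjusted p = 0.00785). *ENO2*, the neural enolase, was 7.55 CPM per kb in control ATII CM against 271 CPM per kb for *ENO1*, and had a log2 fold change of -0.068.

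The other 4 genes of this stage did not pass the test. *GAPDH*, which oxidizes glyceraldehyde 3-phosphate, stood at 2113, 2294 and 2163 CPM in control ATII CM and at 2090.4, 2178 and 2108 CPM in 4-OHT ATII CM, with overlap and an interval of -7.26% to 1.56%. *PGK1*, the first step that yields ATP and a classical HIF target, stood at 351, 367 and 364 CPM and then at 379, 375 and 376 CPM. Here every 4-OHT library lay above every control library, in the direction opposite to *PKM* and *ENO1*, but the change did not pass (log2 fold change 0.064, SE 0.031, adjusted p = 0.310 by edgeR). *TPI1*, which interconverts the triose phosphates, had an interval of -10.1% to -0.431% and *PGAM1*, the phosphoglycerate mutase, one of -6.24% to 4.39%. The 65 named pseudogenes of *GAPDH* summed to 0.398% of its counts. A gene on the opposite strand shares 32.8% of the bases of its main transcript, and whether strand was used in counting is not given in the sources used here.

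Without control library 2, 3 of the 7 enzymes that were highest in it changed sign, with log2 fold changes of 0.036 for *PFKP*, 0.0074 for *PGAM1* and 0.015 for *LDHA*. Another 2 came nearer to 0, *GAPDH* at -0.0085 against -0.043 with that library and *TPI1* at -0.054 against -0.080. *PKM* and *ENO1*, the remaining 2, still passed, as given above. Among the other 10 enzymes the log2 fold changes were -0.041 for *HK1*, -0.25 for *HK2*, -0.044 for *GPI*, 0.11 for *PFKL*, -0.070 for *PFKM*, -0.075 for *ALDOA*, 0.30 for *ALDOC*, 0.076 for *PGK1*, -0.057 for *ENO2* and -0.18 for *LDHB*, each with the sign it had in the fit of all 6 libraries.

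**Figure D2:**
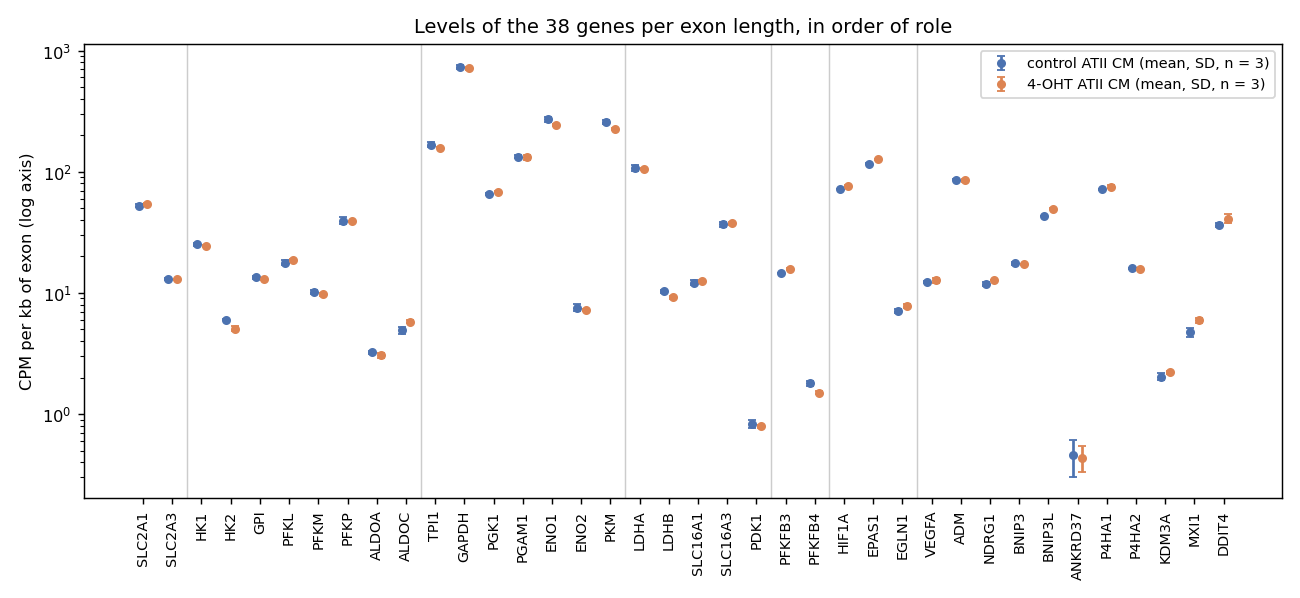
Mean level of each gene tested per kb of exon in control and 4-OHT ATII CM (CPM per kb, log axis; bars, SD, n = 3 libraries a group), in order of role. *GAPDH* is the highest at 735 CPM per kb in control ATII CM, followed by *ENO1* and *PKM*, and *PDK1* and *ANKRD37* are the lowest.

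Per exon length, *GAPDH* had the highest control level of all 38 genes, 735 ± 31.3 CPM per kb (SD, n = 3). *ENO1* followed at 271 ± 12.8 CPM per kb and *PKM* at 256 ± 9.97 CPM per kb, and *ENO1* was the higher of the 2 in each control library. Next came *TPI1* at 167 ± 7.62 CPM per kb, *PGAM1* at 133 ± 3.65, *EPAS1* at 117 ± 1.23 and *LDHA* at 107 ± 5.81. The deposited length counts every annotated exon of a gene, so a gene with many rare isoforms is given a lower level on this scale.

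Lactate formation, lactate export and entry of pyruvate into mitochondria had no called gene among 5 by edgeR, DESeq2 or limma-voom, and 1 of the 5 had an unadjusted p below 0.05 by edgeR, where 5.72% of all genes tested were called and 17.3% had such a p. *LDHA*, the lactate dehydrogenase subunit that HIF induces, stood at 644, 707 and 645 CPM in control ATII CM and at 665, 645 and 644 CPM in 4-OHT ATII CM. Apart from control library 2 at 707 CPM, all libraries lay between 644 and 665 CPM, and the interval of the change was -7.24% to 3.27% (adjusted p = 0.743 by edgeR). *PDK1*, the kinase that closes the pyruvate dehydrogenase gate in hypoxia, stood at 11.8, 11.8 and 13.3 CPM and then at 11.9, 11.5 and 12.1 CPM. Its groups overlapped (log2 fold change -0.057, adjusted p = 0.795 by edgeR). The lactate exporters *SLC16A1* and *SLC16A3*, which encode MCT1 and MCT4, had intervals of -3.99% to 8.75% and -4.13% to 7.67%. *LDHB*, the subunit that favors lactate oxidation, stood at 30.3, 29.96 and 31.6 CPM and then at 28.1, 27.6 and 26.3 CPM without overlap, but did not pass (log2 fold change -0.17, adjusted p = 0.0883 by edgeR). It passed with trends on GC content and length removed (adjusted p = 0.0483 by edgeR), the fit in which *ALDOC* also passed, so that 4 genes rose and 4 fell there. For *LDHB* 76.5% of the bases of its main transcript also belong to ENSG00000285854 on the same strand.

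The bifunctional enzymes that set fructose 2,6-bisphosphate, the strongest allosteric activator of phosphofructokinase, did not pass the test and had log2 fold changes of opposite sign. *PFKFB3* stood at 89.6, 89.6 and 89.8 CPM and then at 97.4, 94.0 and 97.9 CPM (log2 fold change 0.10, SE 0.036, adjusted p = 0.123 by edgeR). *PFKFB4* stood at 10.5, 11.6 and 10.8 CPM and then at 9.14, 9.38 and 8.94 CPM (log2 fold change -0.26, SE 0.085, adjusted p = 0.102). Neither gene had overlapping groups. The *PFKFB4* share of the per-length level of both was 10.5, 11.5 and 10.7% in the control libraries and 8.58, 9.08 and 8.38% in the 4-OHT libraries, a difference of -2.21 percentage points (exact permutation p = 0.1, the smallest possible, and 0.2 after adjustment over 14 shares). Both genes are known HIF targets.

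**Figure D3:**
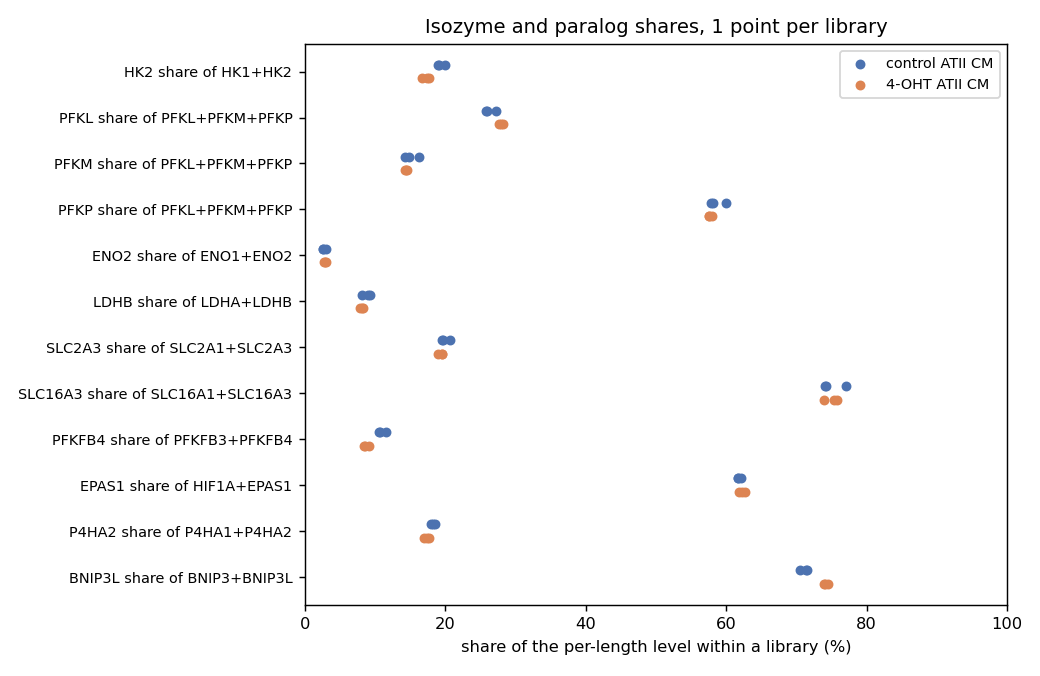
Share of 1 gene in the per-length level of its isozymes or paralogs (%), 1 point per library, for 12 shares in control and 4-OHT ATII CM. The 4-OHT libraries lie apart from the control libraries for *HK2*, *PFKL*, *PFKFB4*, *SLC2A3*, *P4HA2* and *BNIP3L*. For *SLC2A3* the gap is very small, with 19.53% in control library 2 and 19.50% in 4-OHT library 1. Each of these shares had an exact permutation p of 0.1, and 0.2 after adjustment over 14 shares.

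Among the HIF subunits and their prolyl hydroxylases, 1 of 3 genes tested rose (2.95% of all genes tested rose). *EPAS1* (chr2:46293667-46386703), which encodes HIF-2α, stood at 851, 844 and 862 CPM in control ATII CM and at 914, 930.5 and 923 CPM in 4-OHT ATII CM. All 4-OHT libraries lay above all control libraries (log2 fold change 0.11, SE 0.027, adjusted p = 0.0190 by edgeR), a rise of 8.23% with an interval of 4.02% to 12.6%. The call was lost in 4 of the 6 fits that left out 1 library (edgeR adjusted p = 0.0512 without control library 1, 0.0607 without control library 3, 0.0911 without 4-OHT library 2 and 0.121 without 4-OHT library 3). *HIF1A*, which encodes HIF-1α, stood at 373, 369 and 371 CPM and then at 391, 392 and 402 CPM. The groups did not overlap, and the log2 fold change of 0.089 had an adjusted p of 0.109 by edgeR. The *EPAS1* share of both subunits was 61.7, 61.7 and 62.1% and then 62.3, 62.6 and 61.8%, with overlap.

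*EGLN1*, the main oxygen sensor of the HIF pathway and itself induced in hypoxia, had a log2 fold change of 0.12 (adjusted p = 0.154 by edgeR) and passed only in the fit without control library 2 among the 16 alternatives (adjusted p = 0.0490). *EGLN3*, a hydroxylase whose transcript rises steeply in hypoxia in many cells, had 2 counts in control library 2, 1 count in 4-OHT library 3 and 0 in the other 4 libraries. It was therefore below the 10 counts needed for the test, and no level can be given for it at this depth.

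Of the 11 other hypoxia response genes 2 rose and none fell, where 2.95% of all genes tested rose and 10.2% of those at 10 CPM or more were called in either direction. *BNIP3L* (chr8:26382898-26505636), which encodes the mitophagy receptor NIX, stood at 185, 185 and 187 CPM in control ATII CM and at 212, 215 and 215 CPM in 4-OHT ATII CM. All 4-OHT libraries lay above all control libraries, which were close to each other (log2 fold change 0.21, SE 0.032, adjusted p = 0.00109 by edgeR). Its paralog *BNIP3*, a mitophagy receptor and one of the most used hypoxia markers, stood at 91.8, 95.6 and 92.1 CPM and then at 92.2, 91.2 and 93.0 CPM, with overlap and an interval of -6.28% to 4.44%. The *BNIP3L* share of the per-length level of the pair was 71.3, 70.5 and 71.5% in the control libraries and 74.0, 74.5 and 74.1% in the 4-OHT libraries. The difference of 3.05 percentage points had an exact permutation p of 0.1, the smallest possible, and 0.2 after adjustment over 14 shares.

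*MXI1* (chr10:110207605-110287365), which encodes a partner of MAX that opposes MYC, had the largest log2 fold change of all 38 genes, 0.34 (SE 0.068, adjusted p = 0.00689 by edgeR). It stood at 19.8, 22.1 and 23.3 CPM in control ATII CM and at 27.7, 25.9 and 28.7 CPM in 4-OHT ATII CM, without overlap. The interval of the rise was 14.3% to 39.8%. *MXI1* and *BNIP3L*, like *PKM*, passed in all 16 alternatives.

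Neither *VEGFA* nor *ADM*, whose products are secreted, passed the test. *VEGFA*, the vascular endothelial growth factor gene, stood at 175, 176 and 183 CPM in control ATII CM and at 171, 191 and 186 CPM in 4-OHT ATII CM, and the lowest and the highest library were both in 4-OHT ATII CM (interval -3.27% to 9.38%). *ADM*, which encodes adrenomedullin, stood at 230.1, 236 and 234 CPM and then at 228, 227 and 236 CPM, with overlap and an interval of -5.91% to 3.77%. *ANKRD37*, a sharp hypoxia marker in many cells, was near the limit of these libraries at 1.55, 1.23 and 0.750 CPM and then 1.42, 1.08 and 0.875 CPM. Its interval of -37.9% to 46.5% is wide, and 54.7% of the bases of its main transcript are shared with *UFSP2* on the opposite strand.

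*DDIT4*, which encodes the mTORC1 inhibitor REDD1 and responds to hypoxia and other stresses, stood at 74.3, 78.3 and 73.3 CPM in control ATII CM and at 92.5, 79.2 and 81.8 CPM in 4-OHT ATII CM. The groups did not overlap and 4-OHT library 1 was the highest (log2 fold change 0.17, SE 0.053, adjusted p = 0.0851 by edgeR). It passed without control library 2 (adjusted p = 0.0254) and without a filter beyond 1 count (adjusted p = 0.00208), and 48.6% of the bases of its main transcript are shared with a gene on the opposite strand. *NDRG1*, a marker of long hypoxia, had a log2 fold change of 0.10 (adjusted p = 0.150 by edgeR) and passed without control library 2 (adjusted p = 0.0222). The collagen prolyl 4-hydroxylases *P4HA1* and *P4HA2* and the histone demethylase *KDM3A*, all HIF targets, had log2 fold changes of 0.068, -0.021 and 0.11 and did not pass.

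**Figure D4:**
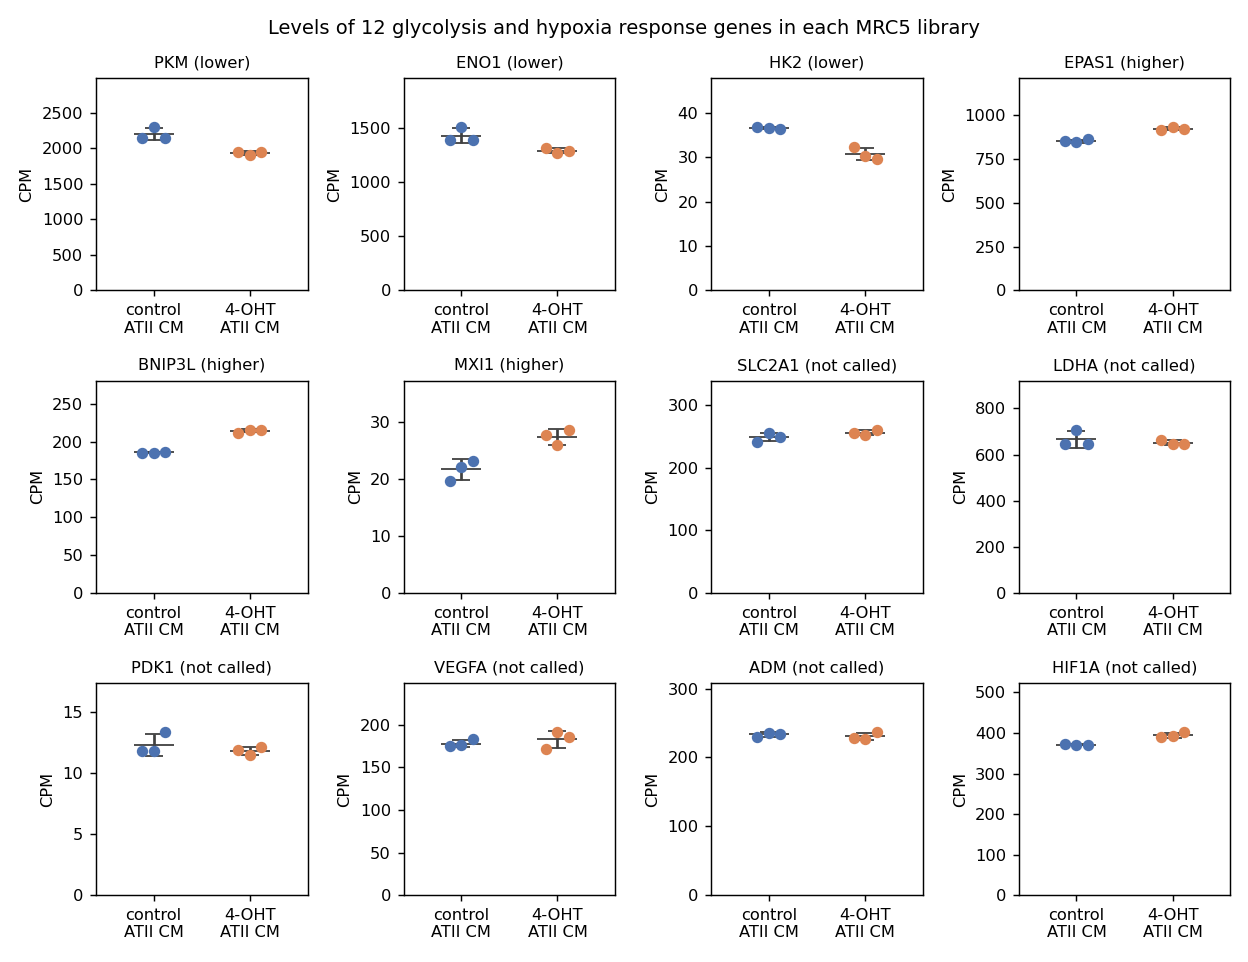
Level of 12 genes in each MRC5 library (CPM on an axis from 0; 1 point per library, horizontal bar for the mean, error bars for the SD, n = 3 a group). The groups are apart for *PKM*, *ENO1*, *HK2*, *EPAS1*, *BNIP3L*, *MXI1* and *HIF1A* and overlap for *SLC2A1*, *LDHA*, *PDK1*, *VEGFA* and *ADM*.

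Genes outside the 39 that bear on the same question were counted by list. Of 29 further HIF target genes 2 rose and 3 fell, with a median log2 fold change of 0.040. These 5 are 17.2% of the list, against 5.72% of all genes tested and 10.2% of those at 10 CPM or more. *STC1*, which encodes the hormone stanniocalcin 1, rose with a log2 fold change of 0.30 (adjusted p = 8.19e-04 by edgeR), and *HMOX1*, heme oxygenase 1, rose with one of 0.19 (adjusted p = 0.0318). *LOX* and *LOXL2*, lysyl oxidases that cross-link collagen, and *GBE1*, the glycogen branching enzyme, had log2 fold changes of -0.17, -0.10 and -0.14 (edgeR adjusted p = 0.00427, 0.0356 and 0.0489). *HMOX1* lost its call in 5 alternatives, *LOXL2* in 7 and *GBE1* in 11 of 16. Of 11 tested genes of the HIF machinery outside the 39, none was called by edgeR, DESeq2 or limma-voom (5.72% of all genes tested by edgeR). An unadjusted p below 0.05 by edgeR was found for 2 of the 11, against 17.3% of all genes tested.

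The glucose side gave 2 lists. Of the 5 tested genes of the MondoA glucose sensor 2 rose (2.95% of all genes tested rose) and none fell, which were its target arrestins *TXNIP* (log2 fold change 0.50, adjusted p = 2.66e-06 by edgeR) and *ARRDC4* (log2 fold change 0.38, adjusted p = 4.14e-04 by edgeR). *TXNIP* stood at 380.3, 348 and 384 CPM in control ATII CM and at 526, 517 and 531 CPM in 4-OHT ATII CM, without overlap. *MLXIPL*, which encodes the related sensor ChREBP, was at 0 in all libraries. Of the 12 genes of the glucose shortage response none was called by edgeR and 3 had an unadjusted p below 0.05 (5.72% and 17.3% of all genes tested), the groups did not overlap for 1 gene in the higher and 3 in the lower direction, and the median log2 fold change was -0.024, with 5 genes above 0 and 7 below. The values ran from -0.18 for *ASNS*, asparagine synthetase, to 0.067 for *PCK2*, the mitochondrial phosphoenolpyruvate carboxykinase. The smallest p in the list was that of *TRIB3*, a stress-induced pseudokinase (log2 fold change -0.12, adjusted p = 0.101 by edgeR). *HSPA5*, the main chaperone of the endoplasmic reticulum, had a log2 fold change of -0.062, *DDIT3*, which encodes the stress factor CHOP, of -0.18 and *ATF4*, the transcription factor of the amino acid response, of 0.042. DESeq2 and limma-voom each called 0 of the 12.

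**Figure D5:**
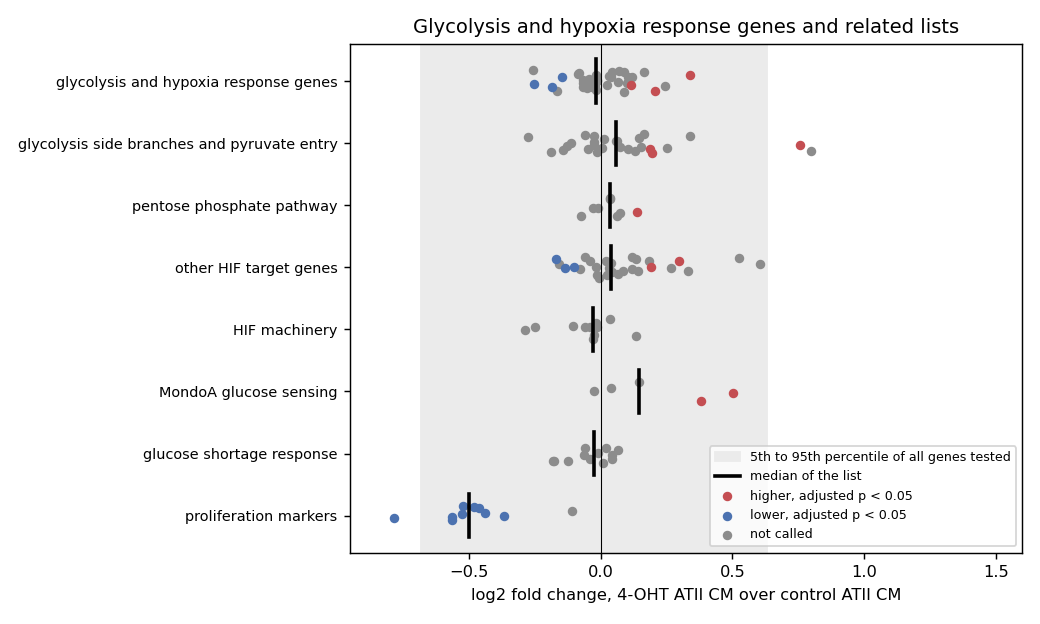
Log2 fold change of every tested gene (points) by list, with the list's median (black bar) and the 5th to 95th percentile of all genes tested (gray band). The median of the 38 genes tested (top row) is -0.016, that of the further HIF targets 0.040, that of the glucose shortage response -0.024 and that of the proliferation markers -0.50.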

How the data were processed

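RNA of MRC5 fibroblasts was sequenced in 3 control ATII CM and 3 4-OHT ATII CM libraries as paired-end reads. The authors trimmed reads with Trim Galore (quality below 30 and reads under 50 bp removed), aligned them to GRCh38 with HISAT2 2.1.0 and deposited raw counts per gene from featureCounts 1.6.5. The annotation release, the strand setting and the treatment of reads that map to several genes are not given in the sources used here. Gene symbols came from GENCODE 44, spans and exon lengths from the count table.

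Genes with at least 10 counts over the 6 libraries were scaled by trimmed mean of M values and tested with the quasi-likelihood test of edgeR 4.0.16 in R 4.3.3, with group as the only term and Benjamini-Hochberg adjustment over all 19072 genes (threshold 0.05). The 95% intervals use the standard error and degrees of freedom of that fit. CPM are counts scaled by the normalized library size, and CPM per kb divide by exon length. Isozyme shares were compared with exact permutation tests in Python 3.11.15. Alternatives were DESeq2 1.42.0, limma-voom (limma 3.58.1), other scalings and filters, a replicate block, a length trend removed, pseudogene counts added and each library left out, and, chosen after seeing the data, GC and length trends removed together. The edgeR, DESeq2 and limma-voom steps were tested on simulated counts, and the permutation test on small constructed cases.

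The genes and lists were chosen with earlier results of these data known, and no list was tested as a set. All 39 genes are named. Values in each library are given for those called, for a set of genes chosen by role and for others, such as *PFKL*, *ALDOA*, *ALDOC*, *LDHB* and *SLC2A3*, chosen after their values were seen. Of other lists the called genes are named, and *HSPA5*, *DDIT3*, *ASNS*, *ATF4*, *PCK2*, *TRIB3* and *MLXIPL* were added after their values were seen. RefSeq promoter windows were matched by symbol for 34 of the 39 genes. *SLC2A3*, *SLC16A1*, *VEGFA*, *NDRG1* and *BNIP3L* had no entry.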

Additional observations from a re-analysis of the deposited data

How the results depend on the processing

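Over 16 alternatives, 582 of 608 values of single genes among the 38 kept their direction and their side of the threshold, and *PKM*, *BNIP3L* and *MXI1* were called in all 16. Without a filter beyond 1 count, 5 genes rose, the additions being *ALDOC* and *DDIT4*. With GC and length trends removed, 4 rose and 4 fell, the additions being *ALDOC* and *LDHB*. When 1 library was left out, the number that rose was 2 to 7 and the number that fell 1 to 3, while the median over the 38 genes, on the log2 scale, was -0.026 to 0.0054. In those fits 8 genes that do not pass changed sign, with log2 fold changes of -0.060 to 0.036 for *PFKP*, -0.036 to 0.016 for *PGAM1*, -0.059 to 0.015 for *LDHA*, -0.0016 to 0.055 for *SLC16A1*, -0.011 to 0.063 for *SLC16A3*, -0.092 to 0.0027 for *PDK1*, -0.030 to 0.0033 for *BNIP3* and -0.33 to 0.19 for *ANKRD37*. The sign turned without control library 2 for *PFKP*, *PGAM1* (0.0074), *LDHA*, *SLC16A1* and *BNIP3*, without control library 1 for *SLC16A3* and *ANKRD37*, without control library 3 for *PDK1*, without 4-OHT library 2 for *PGAM1*, and without 4-OHT library 3 for *SLC16A3* (-0.0074) and *ANKRD37* (0.086). The cause was not tested.

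The short lists turned on few genes. Side branch genes that rose numbered 1 with DESeq2 or limma-voom, 5 without a filter beyond 1 count and 1 to 2 with 1 library left out. Further HIF targets that rose numbered 1 with DESeq2, 5 without that filter and 1 to 3 with 1 library left out, and those that fell 1 to 3 with 1 library left out. Pentose phosphate genes that rose numbered 0 to 1 with 1 library left out. Of the HIF machinery, 1 rose and 1 fell without that filter, 1 fell with a length trend or GC and length trends removed, and 0 to 2 fell with 1 library left out. Of the glucose shortage response, 1 fell with either trend removed and 0 to 1 with 1 library left out.

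Samples with the same replicate number did not deviate together (correlations of -0.014, -0.10 and -0.093 over 9691 genes). The labels do not say whether the numbers pair the samples, and 3 libraries a group are too few for these correlations to settle it. With the replicate block, 985 genes were called against 1090 without it, and of the 38 genes 3 rose and 3 fell. The replicate block left 1 side branch gene that rose and 1 further HIF target that fell. At this depth *EGLN3* was tested only without a filter beyond 1 count, and *ANKRD37* had the widest interval of the 38 genes.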

Other observations

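Beside the main route of glycolysis, 3 of 27 tested genes of its side branches and of pyruvate entry rose and none fell, with a median log2 fold change of 0.060, against 5.72% of all genes tested called in either direction. *SLC2A10*, which encodes the transporter GLUT10, stood at 104, 107 and 107 CPM in control ATII CM and at 119, 124 and 121 CPM in 4-OHT ATII CM (log2 fold change 0.20, SE 0.037, adjusted p = 0.00440 by edgeR). *PDK4*, a pyruvate dehydrogenase kinase known to be induced when cells burn fat, stood at 1.50, 1.90 and 1.72 CPM and then at 3.33, 2.17 and 3.16 CPM, so its log2 fold change of 0.76 (adjusted p = 0.0393 by edgeR) rests on a low level. *BPGM*, which makes 2,3-bisphosphoglycerate, had a log2 fold change of 0.19 (adjusted p = 0.0448 by edgeR). *PDK4* lost its call in 7 of 16 alternatives and *BPGM* in 11.

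Of the 8 genes of the pentose phosphate pathway, which branches off at glucose 6-phosphate to supply NADPH and ribose, 1 rose and none fell (12.5%, against 5.72% of all genes tested and 10.2% of the 9202 genes at 10 CPM or more). This was *PGD*, 6-phosphogluconate dehydrogenase, at 337, 355 and 337 CPM in control ATII CM and 379, 379 and 374 CPM in 4-OHT ATII CM (log2 fold change 0.14, SE 0.033, adjusted p = 0.0196 by edgeR). Its call was lost in 5 of the 6 fits that left out 1 library.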
